A study of Homo sapiens with 44 samples.

Results

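The 6 GATA transcription factors of the human genome, GATA1 to GATA6, were followed together with their cofactors ZFPM1 and ZFPM2 through a differentiation of embryonic stem cells towards heart muscle. The 8 genes were chosen by symbol, matched to Ensembl identifiers through GENCODE release 29, and read from the deposited table of estimated counts. They are 8 of the 60499 genes in that table. All 8 passed the filter on low counts and are among the 22955 genes tested.

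All 44 libraries, 1 per culture well, were made from H1, an established line of human embryonic stem cells. The coating of the pluripotent wells (n = 3) was laminin LN-521, and that of every other group was a mixture of LN-521 and LN-221. Day 0 wells (n = 3) were in Nutristem, a stem cell medium. Day 1 and day 3 wells (n = 3 each) were in RPMI medium with insulin-free B27 and CHIR99021, which switches on Wnt signalling by blocking the kinase GSK3. Day 5 wells (n = 5) had the same medium with IWP2, which blocks the production of Wnt proteins. Day 7 and day 9 wells (n = 5 each) had the insulin-free medium alone. Wells of day 11 (n = 5) and of days 14, 20, 30 and 90 (n = 3 each) had CTS B-27, a supplement for clinical use. The series text names 3 wells for day 11 while the labels name 5, and all 5 were used. Every group comes from the same line, each library is a mixture of the cells in its well, and the p values measure the spread between wells of that line. In such bulk samples, fewer cells of a type and less RNA per cell cannot be told apart.

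Total counts in units of 1e6 ranged from 6.94 to 33.5 per library (median 26.0), and the RNA integrity number from 7.4 to 10.0 (median 9.65). A library's smallest readable level, taken as 3 counts, was 0.0919 to 0.410 CPM (counts per 1e6 counts). The summed level of 5 pluripotency markers was 1310 to 1840 TPM in pluripotent wells and 1330 to 1380 TPM at day 0. It was 41.0 to 111 TPM at day 9. The sum over 7 cardiomyocyte markers was 16.5 to 24.1 TPM at day 0, 1580 to 7380 TPM at day 9 and 4980 to 9400 TPM at day 90. The sums of 6 cell types are plotted by well. Wells 1 and 2 of day 11 stood apart. Their endoderm markers summed to 2240 and 4140 TPM, against 48.1 to 57.9 in the other 3 wells of that day, and their cardiomyocyte markers to 4560 and 2840 TPM against 5500 to 6480. Their integrity numbers were 8.6 and 8, against 9.2 to 9.5.

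**Figure D1:**
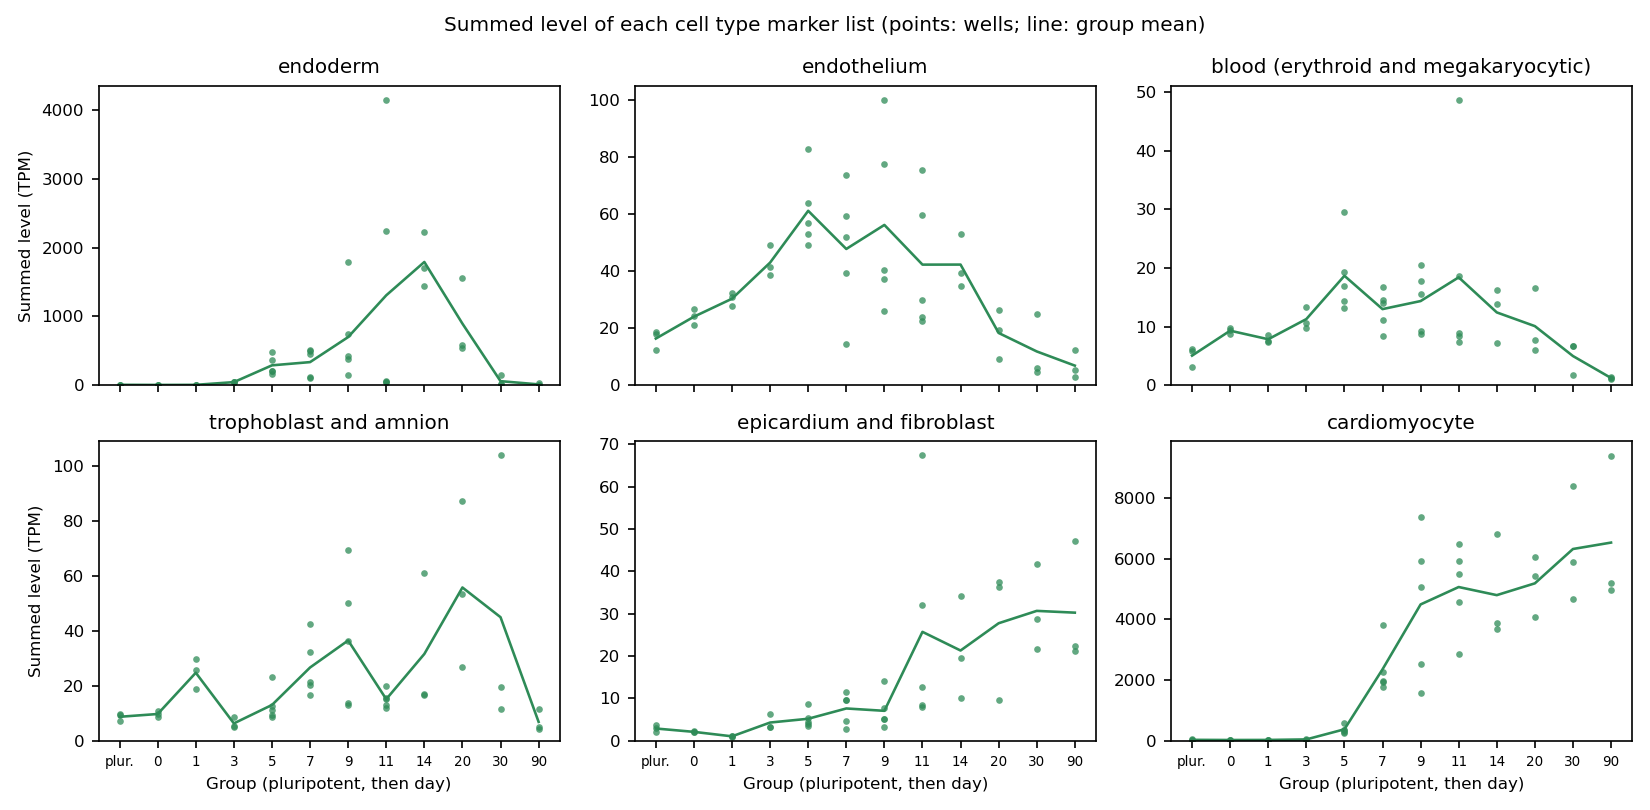
Summed TPM of 6 marker lists (vertical axes, linear and each with its own scale) in every well (points) with group means (lines), by group in time order and not to scale in time. Cardiomyocyte markers reach 1580 to 7380 TPM at day 9, while endoderm markers range from 147 to 1790 TPM there and from 2.22 to 35.0 TPM at day 90.

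GATA factors bind DNA through a pair of zinc fingers that read the word GATA. GATA4, GATA5 and GATA6 act in mesoderm, endoderm and the heart. There GATA4 works with NKX2-5, TBX5 and other factors on the genes of the contractile apparatus. GATA1, GATA2 and GATA3 are best known from blood cells, with further roles of GATA2 in endothelium and of GATA3 in T cells and trophoblast. ZFPM1 and ZFPM2, also called FOG1 and FOG2, bind one of the zinc fingers and raise or lower the activity of the factor. ZFPM1 is the partner of GATA1 in blood, and ZFPM2 the partner of GATA4 in the heart.

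The genes lie on chromosomes X (GATA1), 3 (GATA2), 10 (GATA3), 8 (GATA4 and ZFPM2), 20 (GATA5), 18 (GATA6) and 16 (ZFPM1) of GRCh38. GATA2, GATA3 and GATA6 each share their locus with a gene on the opposite strand, GATA2-AS1, GATA3-AS1 and GATA6-AS1. Sequence before the start of GATA6 and of GATA2 is shown because it lies just outside the GATA gene, before its start, and inside the annotated span of the antisense gene. The sequences come from RefSeq on GRCh38.p14 and run 5′ to 3′ on the strand of the GATA gene.
GATA6, chr18:22169339-22169442, plus strand: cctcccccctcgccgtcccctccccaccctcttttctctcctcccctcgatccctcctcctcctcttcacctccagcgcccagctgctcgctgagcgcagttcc
GATA2, chr3:128493202-128493451, minus strand: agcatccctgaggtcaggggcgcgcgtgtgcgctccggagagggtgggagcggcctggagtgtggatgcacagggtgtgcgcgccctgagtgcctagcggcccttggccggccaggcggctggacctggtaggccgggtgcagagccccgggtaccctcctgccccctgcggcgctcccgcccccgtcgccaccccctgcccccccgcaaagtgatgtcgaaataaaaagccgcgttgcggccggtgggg

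The GATA6 stretch is the 104 bases directly before the GENCODE start of GATA6 and is 68.3% G and C. The GATA2 stretch is the 250 bases before a RefSeq start and is 72.8% G and C. Both are printed in lower case throughout because the searched motif does not occur in them on either strand. It was the word AGATAA, also with T as its first letter, G as its last letter, or both, and these forms were counted as 1 motif. Of the members, 5 had entries in the promoter table (GATA1, GATA2, GATA3, GATA6 and ZFPM1), with 11 windows of 300 bases, from 250 before to 50 after a start. None of these 11 windows held a match, against 25.0% of all windows (8769 of 35116). This says only that these letters are not in these windows.

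GATA4 and GATA6 were called higher from day 1. GATA5, GATA2 and GATA3 were called higher between day 1 and day 3, and both cofactors between day 3 and day 5. From day 5 to day 90 GATA4 kept a mean of 120 to 161 CPM. GATA2, GATA3 and GATA5 were lower at day 90 than at day 9. GATA1 stayed below 1 CPM in every well. The plot of levels by well shows all 8 courses.

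**Figure D2:**
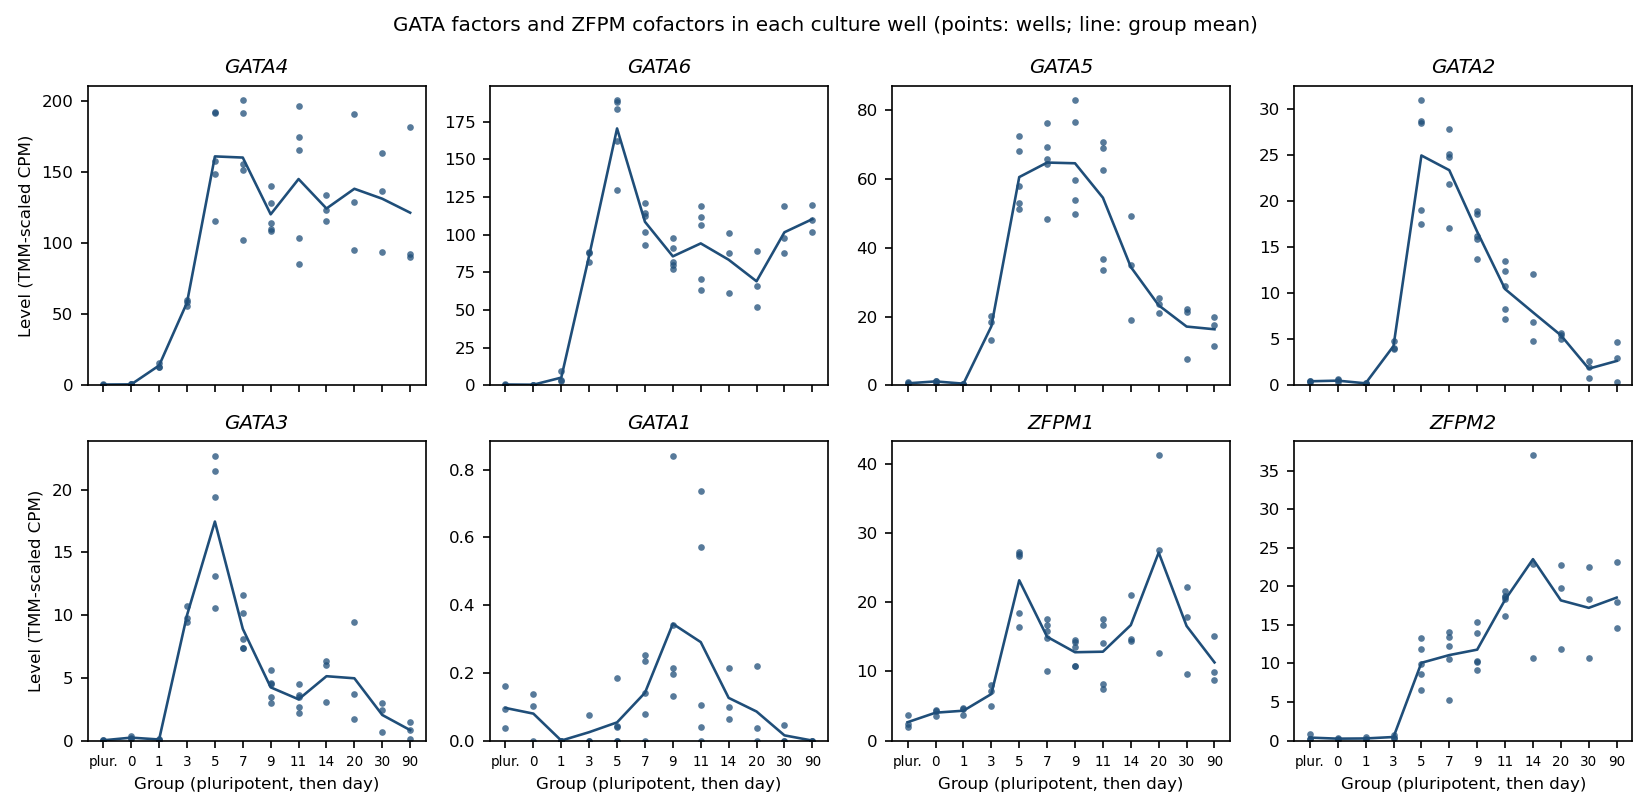
Level of each GATA factor and cofactor in TMM-scaled CPM (vertical axes, linear and each with its own scale) in every well (points) with group means (lines), by group in time order and not to scale in time. GATA4 and GATA6 reach 161 and 171 CPM on average at day 5, GATA2 and GATA3 peak there and fall back, and ZFPM2 is highest on average at day 14.

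GATA4, the factor best known for heart muscle genes, was at 0.570, 0.599 and 0.760 CPM in the 3 wells of day 0. It was at 13.1, 15.7 and 12.98 CPM at day 1, so every day 1 well was above every day 0 well. The log2 fold change was 4.43 (SE 0.38, adjusted p = 4.6e-11 by the quasi-likelihood test of edgeR, over all tested genes). At day 3 the wells read 55.9, 58.8 and 59.9 CPM, a further log2 change of 2.06 (SE 0.31, adjusted p = 2.7e-06, edgeR). At day 5 they read 192, 191, 115, 149 and 158 CPM. That was 1.47 above day 3 on the log2 scale (SE 0.28, adjusted p = 0.00021, edgeR), with no overlap between the wells of the groups.

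From then on the GATA4 level had no called step. Group means were 160 ± 39.0 CPM at day 7 (SD, n = 5), 120 ± 13.6 at day 9 (n = 5), 145 ± 48.0 at day 11 (n = 5) and 124 ± 9.42 at day 14 (n = 3). They were 138 ± 48.7 at day 20, 131 ± 35.3 at day 30 and 121 ± 52.4 at day 90 (n = 3 each). The day 11 wells fell into 104 and 85.4 CPM in wells 1 and 2 and 166 to 196 CPM in the other 3. The same split held for GATA6 (70.3 and 63.6 against 107 to 119 CPM) and GATA5 (36.8 and 33.4 against 62.7 to 70.9 CPM), and it goes with the endoderm marker sums. In TPM it was not seen: GATA4 was at 32.5 and 25.5 TPM in wells 1 and 2 and at 22.7 to 28.0 in the others. Without both wells no member was called at day 11 or day 14 by edgeR, where 2 (GATA1 and GATA4) and 1 (GATA5) had an unadjusted p under 0.05. The part of endoderm cells and of RNA quality in this split was not tested. In the order of group means, the 8 groups from day 5 on overlapped with their neighbours, while days 9 and 3, days 3 and 1, and days 1 and 0 were each apart.

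GATA6, which acts with GATA4 in heart and endoderm, was at 0.436, 0.499 and 0.242 CPM at day 0. At day 1 it was at 3.30, 9.19 and 2.80 CPM, with the second well far above the others. All 3 were above day 0, and the log2 change was 3.68 (SE 0.39, adjusted p = 4e-09, edgeR). Without any 1 of the 6 wells the change lay between 2.94 and 3.97 and stayed called. On log2(TPM + 1) with limma, a scale that understates the change of low genes, it was 0.86 and not called (adjusted p = 0.15).

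The largest step of GATA6 came next. The day 3 wells read 88.0, 88.2 and 82.0 CPM, 4.08 above day 1 on the log2 scale (SE 0.33, adjusted p = 3.9e-12, edgeR). At day 5 they read 183, 188, 130, 189 and 162 CPM, all above day 3. The log2 change of 0.99 (SE 0.27, adjusted p = 0.0073, edgeR) lay just under the fold threshold of 1 used for a call, and it was just over it with RLE scaling (1.01), without the filter (1.00), in a fit of these 2 groups alone (1.03) and by DESeq2 (1.01). Day 5 was also the highest group for GATA6 and stood apart from the next in the order, day 90. Day 7 was at 109 ± 10.9 CPM (SD, n = 5), a log2 change of -0.65 that was not called by edgeR (SE 0.22, adjusted p = 0.081). The means of later groups lay between 69.1 ± 18.9 CPM at day 20 and 110 ± 9.11 CPM at day 90 (SD, n = 3 each).

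GATA5, the third factor of the heart and endoderm subgroup, took another course at day 1. It was at 0.705, 1.36 and 1.31 CPM at day 0 and at 0.472, 0.450 and 0.498 CPM at day 1, the opposite direction to GATA4 and GATA6. Its log2 change of -1.24 was called (SE 0.44, adjusted p = 0.038, edgeR). The call was lost with the sequencing lane as a term (adjusted p = 0.066) and without any 1 of 5 of the 6 wells (0.084 to 0.14). With limma the change was -0.16 on log2(TPM + 1) (adjusted p = 0.94) and -0.66 on log2(TPM + 0.1) (adjusted p = 0.36). At day 3 GATA5 was at 20.0, 18.4 and 13.1 CPM, 5.16 above day 1 on the log2 scale (SE 0.42, adjusted p = 5.4e-12, edgeR). At day 5 it was at 68.1, 72.4, 51.2, 53.1 and 57.9 CPM, a further 1.82 (SE 0.31, adjusted p = 4.1e-05, edgeR). Neither of these steps had overlapping wells.

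From day 7 to day 20 no step of GATA5 was called. Means were 64.8 ± 10.3 CPM at day 7 and 64.6 ± 14.4 at day 9 (SD, n = 5 each), 54.6 ± 18.1 at day 11 (n = 5), 34.4 ± 15.1 at day 14 (n = 3) and 23.3 ± 2.19 at day 20 (n = 3). Day 90 wells were at 17.6, 19.8 and 11.5 CPM, all below the lowest day 9 well of 49.9 CPM. That difference was -1.99 on the log2 scale (SE 0.32, adjusted p = 3.2e-06, edgeR), with no called step between neighbouring days after day 5.

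GATA2, known from blood stem cells and endothelium, was at 0.202, 0.161 and 0.280 CPM at day 1. At day 3 it was at 4.81, 4.10 and 3.89 CPM (log2 change 4.28, SE 0.51, adjusted p = 3e-08, edgeR). At day 5 it was at 28.5, 28.7, 30.96, 19.0 and 17.6 CPM, a further 2.55 (SE 0.39, adjusted p = 6.4e-06, edgeR). Each of the 2 rises left the wells of the groups apart. Day 7 wells were at 17.1 to 27.9 CPM and day 9 wells at 13.7 to 18.9 CPM.

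The GATA2 mean was 5.43 ± 0.336 CPM at day 20 (SD, n = 3), after steps that were not called. At day 30 the wells read 0.774, 1.95 and 2.69 CPM, all below the day 20 wells of 5.72, 5.06 and 5.51 CPM. The log2 change of -1.61 was called (SE 0.43, adjusted p = 0.03, edgeR). The call was lost with the lane as a term (adjusted p = 0.066), in a fit of these 2 groups alone (0.83), without day 20 replicate 1 (0.082) and without day 30 replicate 1 (0.17). It was also lost with limma on log2(TPM + 1) (adjusted p = 0.41) and on log2(TPM + 0.1) (0.12). The groups differ in depth and RNA quality too: day 20 libraries held 6.94 to 27.2 times 1e6 counts with integrity numbers of 8.0 to 9.3, and day 30 libraries 11.7 to 27.4 times 1e6 with 7.4 to 10.0. The part of depth and RNA quality in this difference was not tested. At day 90 GATA2 was at 4.66, 0.348 and 2.91 CPM, a wide spread. All 3 were below every day 9 well (log2 change -2.62, SE 0.40, adjusted p = 1.4e-06, edgeR).

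GATA3, known from T cells and trophoblast, was at 0, 0.0306 and 0.0365 CPM in pluripotent wells and at 0.369, 0.200 and 0.138 CPM at day 0. The wells did not overlap, but all these levels are near the floor of 3 counts. The log2 difference of 3.08 was not called (SE 0.97, adjusted p = 0.05 after rounding, just over the threshold, edgeR), while DESeq2 called it (adjusted p = 0.040). At day 1 GATA3 was at 0.135, 0.0643 and 0.0623 CPM. At day 3 it was at 9.46, 9.79 and 10.7 CPM, the largest single step of any member (log2 change 6.77, SE 0.66, adjusted p = 3.4e-10, edgeR).

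The day 5 wells of GATA3 were at 21.5, 22.7, 19.4, 13.1 and 10.6 CPM and overlapped those of day 3 (log2 change 0.80, SE 0.41, adjusted p = 0.19, edgeR). The mean was 8.91 ± 1.86 CPM at day 7 and 4.24 ± 1.02 at day 9 (SD, n = 5 each). The 2 steps of -0.97 (SE 0.35) and -1.07 (SE 0.36) were not called by edgeR (adjusted p = 0.11 and 0.13). The day 9 step was called in a fit of days 7 and 9 alone (adjusted p = 0.0062). Day 90 wells were at 0.852, 0.139 and 1.51 CPM, below every day 9 well (log2 change -2.31, SE 0.49, adjusted p = 0.00022, edgeR).

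GATA1, the erythroid and megakaryocytic factor, was measured with very few reads. The most that any library held was 25 counts, at day 9. The 5 day 9 wells had 9, 5, 25, 5 and 4 counts, or 0.341, 0.214, 0.842, 0.197 and 0.130 CPM. The 3 wells of day 1 and the 3 of day 90 had 0 counts. All neighbouring groups in its order of levels overlapped. Day 90 was called lower than day 9 by edgeR (adjusted p = 0.01), and against the floor of 3 counts in each day 90 library day 90 is at least 2.02-fold lower than the day 9 mean of 0.345 CPM. Without day 9 replicate 2, the well with 25 counts, that bound is 1.29-fold. The call was lost with limma on log2(TPM + 1) (adjusted p = 0.12). Wells 1 and 2 of day 11, whose blood markers summed to 18.6 and 48.6 TPM against 7.37 to 8.96 in the others, held 0.572 and 0.738 CPM of GATA1, against 0 to 0.104.

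ZFPM1, the cofactor of GATA1 in blood, was readable well above the floor in stem cells too. Pluripotent wells were at 2.37, 1.93 and 3.68 CPM and day 0 wells at 3.49, 4.23 and 4.39 CPM. At day 3 it was at 8.03, 7.22 and 4.94 CPM (log2 change from day 1 0.64, SE 0.34, adjusted p = 0.17, edgeR). Day 5 wells were at 26.9, 27.3, 18.5, 16.4 and 26.7 CPM, all above day 3 (log2 change 1.78, SE 0.32, adjusted p = 8.6e-05, edgeR). In TPM the same step was not called (change 1.01 on log2(TPM + 0.1), adjusted p = 0.17, and 0.82 on log2(TPM + 1), adjusted p = 0.15, limma). Wells 1 and 2 of day 11 were at 8.25 and 7.52 CPM against 14.1 to 17.6 in the other 3, and at 1.42 and 1.48 TPM against 2.24 to 2.68. Day 20 had the highest mean, 27.2 ± 14.3 CPM (SD, n = 3), from wells at 27.6, 41.3 and 12.7 CPM that reach past those of day 5 on both sides.

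ZFPM2, the cofactor of GATA4 in the heart, came on between day 3 and day 5. It was at 0.715, 0.335 and 0.340 CPM at day 3 and at 9.99, 11.9, 13.4, 6.57 and 8.63 CPM at day 5. No wells overlapped, and the log2 change was 4.44 (SE 0.48, adjusted p = 1e-08, edgeR). It went on to 18.3 ± 1.26 CPM at day 11 (SD, n = 5) in steps that were not called. At day 14 the wells were far apart, at 37.0, 22.9 and 10.7 CPM. Day 90 wells read 23.2, 14.5 and 17.9 CPM. In the order of group means 10 of its 11 neighbouring pairs overlapped, and the pair set apart was day 5 and day 3.

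The stem cell levels of most members were small against those of other libraries on the same lane. In the 6 wells of the pluripotent and day 0 groups, GATA4 was at 0.142% to 0.735% of the mean of the other libraries of the lane. GATA6 was at 0.276% to 0.936%, GATA5 at 0.808% to 3.67% and ZFPM1 at 16.3% to 36.6%. The part that reads of other libraries play in these low levels was not tested.

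Counted over the 8 members, 0 were called between day 0 and pluripotent wells by edgeR, where 2.91% of all tested genes were called (2 members at an unadjusted p under 0.05, and 1 called by DESeq2). At day 1 against day 0, 3 members were called, beside 13.5% of all genes. Of these, 2 were higher (3.86% of all genes) and 1 lower (9.66%). At day 3 against day 1, 5 members were called, all higher, beside 17.8% of all genes in either direction and 11% higher. At day 5 against day 3, 5 were called, all higher, beside 10.1% in either direction and 5.75% higher. The members' median log2 change was 3.33 at day 3 and 1.63 at day 5, where the median of all tested genes was 0.07 and -0.02.

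After day 5 almost no members were called, in steps where at most 5.09% of all genes were called. For 8 members such counts are near the shares of all genes. None of the 8 was called by edgeR at day 7 against day 5, where 3.65% of all genes were called, although 3 had an unadjusted p under 0.05. No member was called at day 9 against day 7 (1.28% of all genes), at day 11 against day 9 (1.63%), at day 14 against day 11 (0.697%), at day 20 against day 14 (0.0479%) or at day 90 against day 30 (5.09%). In these 5 steps 1, 2, 1, 1 and 1 members had an unadjusted p under 0.05, and DESeq2 called 0 in each. Over all genes, leaving out wells 1 and 2 of day 11 raised the calls from 375 to 862 at day 11 and from 160 to 2379 at day 14. Without day 14 replicate 3, GATA5 was called lower at day 14 (log2 change -1.02, adjusted p = 0.047, edgeR), and without day 30 replicate 1, GATA3 was called lower at day 90 (-1.67, adjusted p = 0.044, edgeR). At day 30 against day 20, 1 member, GATA2, was called, beside 2.02% of all genes in either direction and 1.26% lower.

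**Figure D3:**
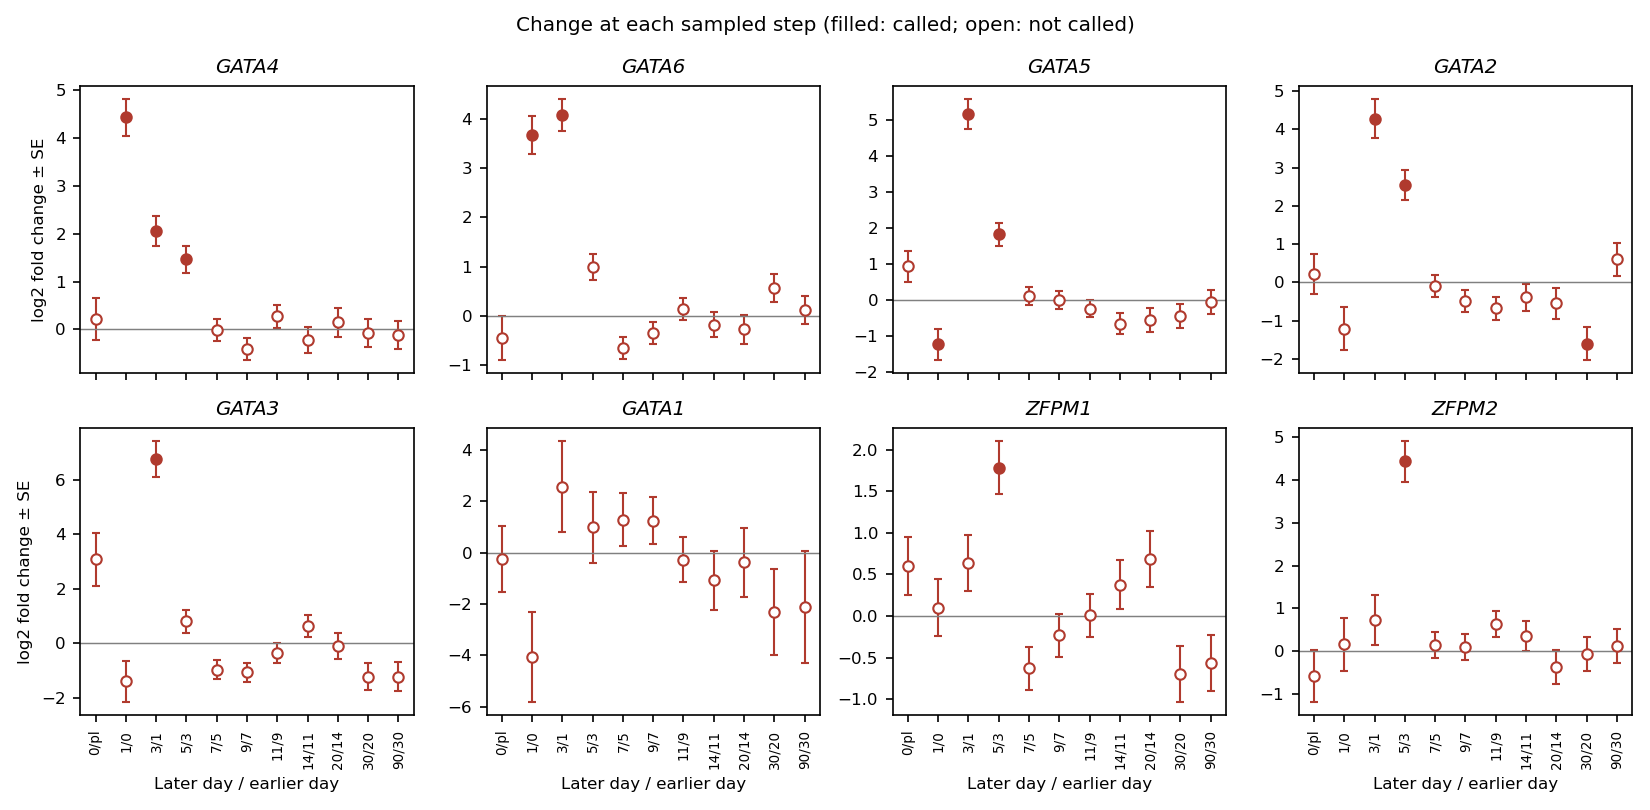
Fitted log2 fold change with its standard error (vertical axes, each with its own scale) for each sampled step (horizontal axes), with filled points for calls at an adjusted p under 0.05 and a log2 change of at least 1. Filled points gather at days 1, 3 and 5, and after day 5 the single filled point is that of GATA2 at day 30 (-1.61).

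Over the whole specification, day 9 against day 0, 7 of 8 members were called higher, beside 31.7% of all genes called in either direction and 17.1% called higher. GATA1 was not called (log2 change 2.06, SE 1.16, adjusted p = 0.15, edgeR). The largest differences were those of GATA6 (7.75, SE 0.41) and GATA4 (7.54, SE 0.41), and the smallest called difference was that of ZFPM1 (1.66, SE 0.32). In TPM with limma, 6 members were called on log2(TPM + 0.1), without ZFPM1 (1.09, adjusted p = 0.061). On log2(TPM + 1) 5 were called, without ZFPM1 (0.72, adjusted p = 0.12) and without GATA3, whose change of 0.74 (adjusted p = 0.028) is under the fold threshold. These values share their libraries with the single steps above.

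At day 90 against day 9, 4 members were called lower (GATA1, GATA2, GATA3 and GATA5), beside 23.9% of all genes in either direction and 12% lower. The 2 main heart factors and both cofactors were not called. GATA4 differed by 0.01 (SE 0.27, adjusted p = 0.98, edgeR), GATA6 by 0.37 (SE 0.25), ZFPM1 by -0.18 (SE 0.30) and ZFPM2 by 0.65 (SE 0.35). The GATA4 wells of day 90 were at 90.2, 182 and 92.2 CPM, against 109 to 140 CPM at day 9. In TPM, the median of 13535 more highly expressed genes moved by -0.63, against -0.08 in scaled counts. On that scale the differences of GATA4 and GATA6 were -0.72 and -0.22 on log2(TPM + 0.1) and not called by limma. With 3 wells against 5, such values do not show that the levels were equal.

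Compared per transcript length, in TPM, the 6 GATA genes summed to 0.730 ± 0.0854 TPM at day 0 and 4.72 ± 0.976 at day 1 (SD, n = 3 each). At day 3 they summed to 41.2 ± 2.01 TPM (n = 3) and at day 5 to 85.9 ± 17.4 TPM (n = 5). At day 1 GATA4 made up 74.8% of the summed level on average and GATA6 20.2%. At day 3 they made up 36.5% and 41.7%. GATA5 took its largest share among the differentiating groups at day 9, 23.1%, when GATA2 held 6.47% and GATA3 1.46%. At day 90 GATA4 held 52.8%, GATA6 37.3% and GATA5 7.58%.

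The ratio of GATA4 to GATA6 within a well does not depend on the scaling between libraries. The mean log2 ratio of their TPM was 1.86 ± 0.776 at day 1 (SD, n = 3), with 1 well at 0.97, the one with the high GATA6 level, and the others above 2. At day 3 it was -0.19 ± 0.134 (n = 3), so GATA6 was above GATA4 in all 3 wells. At day 5 it was 0.25 ± 0.113 (n = 5), higher than at day 3 by 0.44 (two-sided exact permutation p = 0.018, the smallest these group sizes allow, adjusted over 3 tests 0.027). At day 9 it was 0.99 ± 0.226 (n = 5), higher than at day 5 by 0.75 (exact permutation p = 0.0079, adjusted 0.024). The 2 higher groups had no well in the range of the lower one. At day 90 it was 0.50 ± 0.424 (n = 3), and the difference from day 9 of -0.50 was within the spread (exact permutation p = 0.089, adjusted 0.089). Without day 90 replicate 4 that difference was -0.74 and passed the threshold, with the smallest exact p that the remaining wells allow.

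**Figure D4:**
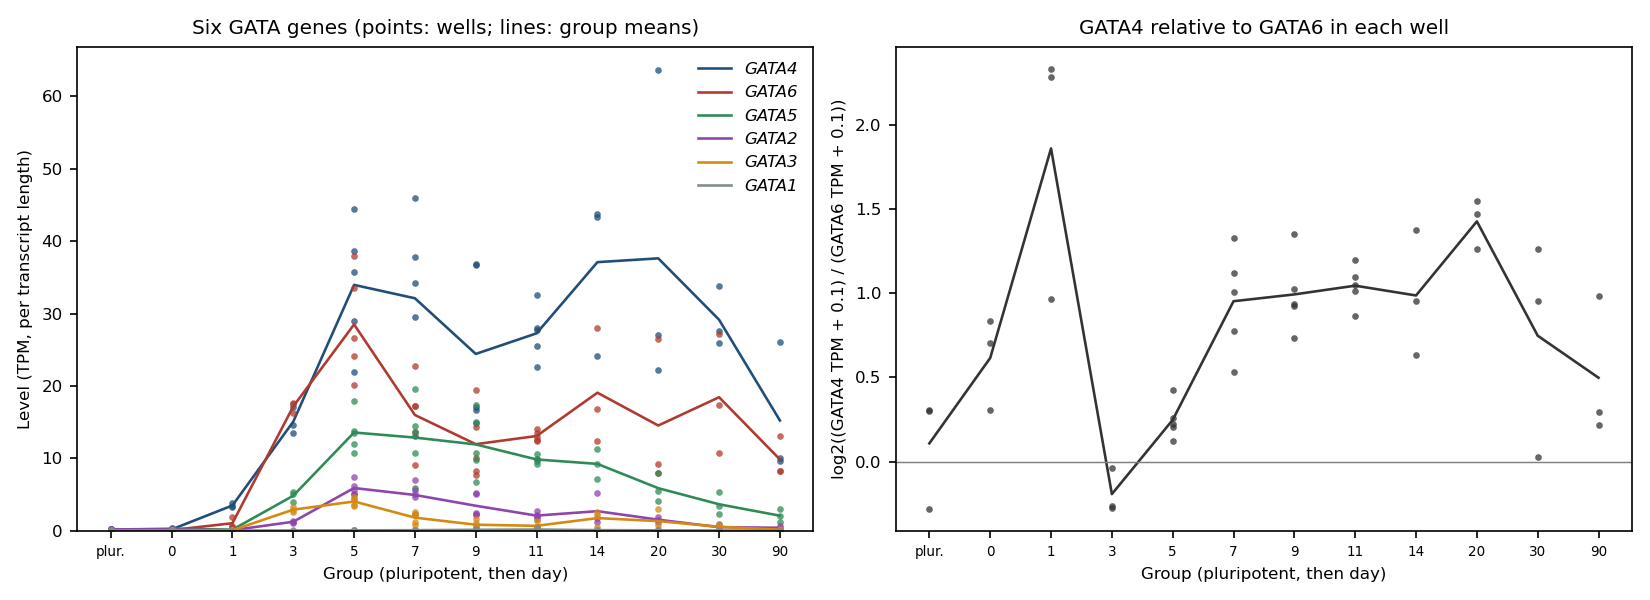
Left, the TPM of the 6 GATA genes in every well (points) with group means (lines); right, the log2 ratio of GATA4 to GATA6, each with 0.1 TPM added, in the same wells, both linear and by group in time order. The ratio drops from 1.86 on average at day 1 to -0.19 at day 3 and is 0.99 at day 9.

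All 3 antisense genes were called higher at day 3 against day 1, and GATA2-AS1 and GATA6-AS1 again at day 5 against day 3. GATA6-AS1 was at 0.366 ± 0.0219 CPM at day 1, 16.9 ± 5.26 at day 3 (SD, n = 3 each) and 105 ± 32.1 at day 5 (n = 5). Its log2 changes were 5.51 (adjusted p = 1.4e-10, edgeR) and 2.64 (adjusted p = 2.8e-06, edgeR). The second step is larger than the 0.99 of GATA6 itself, a difference that was not tested. GATA2-AS1 reached 3.59 ± 1.19 CPM at day 5 (SD, n = 5) from 0.395 ± 0.116 at day 3 (n = 3), a log2 change of 3.17 (adjusted p = 1.5e-04, edgeR). GATA3-AS1 rose between day 1 and day 3, to 1.54 ± 0.594 CPM (SD, n = 3, log2 change 5.38, adjusted p = 1.9e-04, edgeR). At day 90 against day 9, GATA2-AS1 and GATA3-AS1 were called lower and GATA6-AS1 was not. Over the 12 group means, the correlation of log2 levels was 0.977 for the GATA2 pair, 0.926 for the GATA3 pair and 0.954 for the GATA6 pair, values that share their libraries. The library kit keeps the strand, but whether the counting used it is not given in the sources used here. Without strand, reads from overlapping genes of a pair cannot be told apart, and ZFPM1 and ZFPM2 overlap opposite-strand genes as well.

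**Figure D5:**
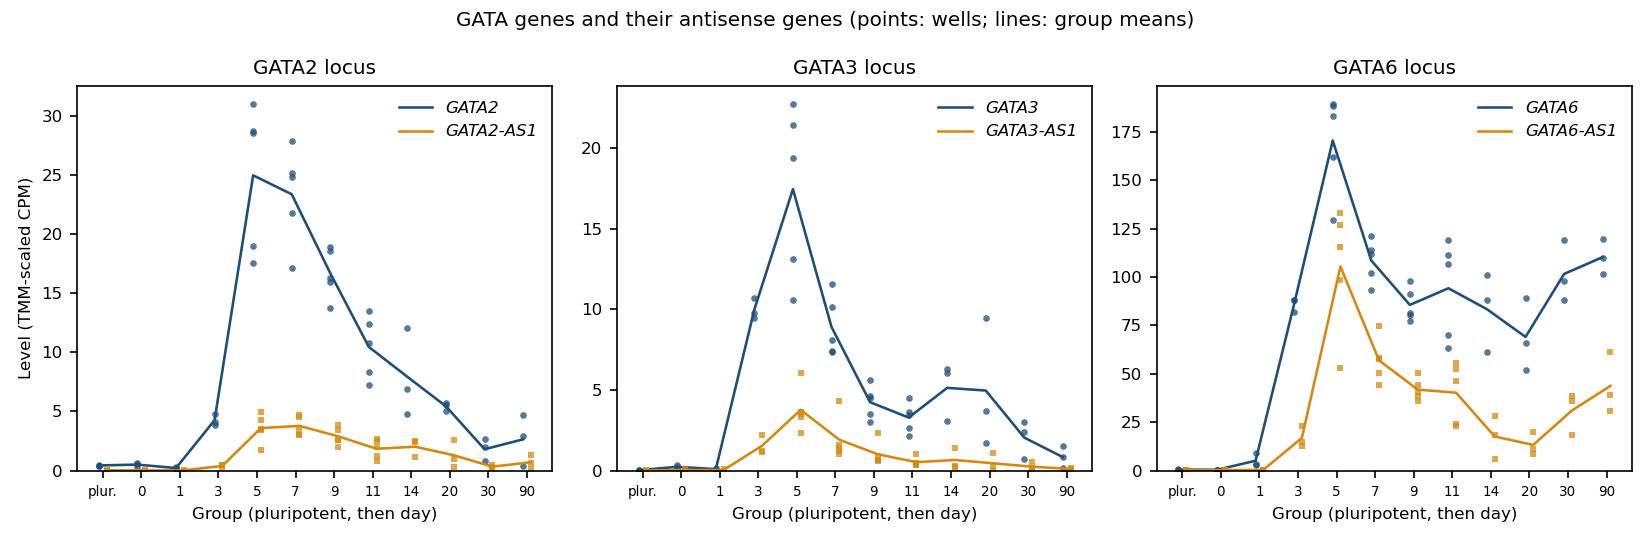
CPM of GATA2, GATA3 and GATA6 (circles) and of the antisense gene at each locus (squares) in every well, with group means (lines), by group in time order. All 3 antisense genes are near 0 up to day 1, and GATA6-AS1 reaches 105 CPM on average at day 5.

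Members differed in how alike their courses were. Over the same 12 group means the correlation of log2 levels was highest between GATA4 and GATA6 (0.981), then between GATA2 and GATA5 (0.936) and between GATA5 and GATA6 (0.915). GATA1 resembled the others least, from 0.166 with GATA6 to 0.539 with GATA2, and among the other members the lowest value was 0.464, between GATA3 and ZFPM2. Members with a mean of at least 5 CPM in some group were compared with all tested protein-coding genes that are not members. The course most like that of GATA4 was that of SIPA1L2 (0.994), followed by PYGO1 (0.992). For ZFPM2 it was TBX5 (0.987), a heart T-box factor, and for GATA3 it was FOXF1 (0.973), a mesoderm forkhead factor. Outside the members, DDHD2 (0.976) and the homeobox gene MEIS1 (0.975) were closest to GATA6, below the 0.981 of GATA4. CD99 (0.99) was closest to GATA5, LYPD6 (0.985) to GATA2 and TFAP2A (0.972) to ZFPM1. GATA1 was too low to be ranked. With 12 points that share libraries and 1 common rise, these values describe courses.

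The factors that work with GATA4 were described by a list of 8 genes. Of all tested genes, 11% were called higher at day 3 against day 1 and 5.75% at day 5 against day 3. At day 90 against day 9, 23.9% were called in either direction. At day 3 against day 1, 5 of 8 were called higher, among them HAND1 (127.8 ± 18.3 against 0.573 ± 0.0926 CPM, SD, n = 3 each, log2 change 7.79), ISL1 (4.74) and TBX20 (4.18). At day 5 against day 3, again 5 of 8 were called higher, with MEF2C at 5.64, TBX5 at 5.44 and NKX2-5 at 3.94. The medians of the list were 2.62 and 2.92. At day 90 against day 9, 2 were called higher (HAND2 by 2.31, and TBX20 with 304 ± 101 CPM, SD, n = 3, against 132 ± 22.3, n = 5) and 2 lower (HAND1 by -1.94 and ISL1 by -1.37), with a list median of 0.04.

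Heart muscle genes with known GATA sites were described by a list of 10. Of all tested genes, 9.66% were called lower at day 1 against day 0. The shares called higher were 11% at day 3 against day 1 and 5.75% at day 5 against day 3. At day 1 against day 0, 3 of 10 were called, all lower, TNNI3 (-1.83), SLC8A1 (-1.53) and ADORA1 (-1.20). At day 3 against day 1, 1 of 10 was called higher, TNNC1, the slow troponin C gene (26.3 ± 4.88 against 3.22 ± 0.752 CPM, SD, n = 3 each). At day 5 against day 3, 5 of 10 were called higher, among them NPPB (4.75), MYL7 (3.63), ACTC1 (3.53) and MYH6 (2.91), and TNNC1 was lower (-1.21). At day 7 against day 5, where no GATA member was called, 8 of 10 were called higher, beside 3.65% of all genes in either direction. At day 90 against day 9, 6 were called higher and 1 lower, beside 23.9% of all genes in either direction. The higher ones were led by TNNI3 (3.81), TNNC1 (3.32) and the sodium-calcium exchanger SLC8A1 (2.89). The lower one was MYH6, the alpha myosin heavy chain gene (-2.26). Over the same interval GATA4 differed by 0.01 in scaled counts. Its day 90 wells were at 90.2, 182 and 92.2 CPM, against 109 to 140 CPM at day 9. In TPM its means were 24.4 at day 9 and 15.2 at day 90.

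Of 5 other genes with a GATA-type zinc finger (TRPS1, ZGLP1, GATAD1, GATAD2A and GATAD2B), ZGLP1 alone was called in the comparisons that called a member. It was lower at day 3 against day 1 (-1.16, adjusted p = 0.045, edgeR), where 17.8% of all genes were called in either direction. It was also lower at day 90 against day 9 (-1.05, adjusted p = 0.05 after rounding, just under the threshold, edgeR). There its wells overlapped, and 23.9% of all genes were called in either direction. The list median at day 9 against day 0 was 0.05, where that of the 8 members was 5.29 and that of all genes 0.08.

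Markers of other cell types changed as well, in directions that differed between lists. Of all tested genes, 3.86% were called higher in the step to day 1, 11% in that to day 3 and 5.75% in that to day 5. In either direction 17.8% were called in the step to day 3. At day 9 against day 0, 17.1% were called higher. At day 90 against day 9, 12% were called lower and 23.9% in either direction. Of 6 epicardium and fibroblast markers, 4 were called higher and 0 lower at day 90 against day 9. Their sum was 3.12 to 14.0 TPM at day 9 and 21.2 to 47.2 TPM at day 90. The part of such cells in the levels of the members was not tested. Endoderm also uses GATA4 and GATA6. Of 8 endoderm markers, 1 (FOXA2) was called higher at day 1 against day 0, 4 at day 3 against day 1, 4 at day 5 against day 3 (with SOX17 lower, -3.21) and 8 at day 9 against day 0, and 8 were called lower at day 90 against day 9. Their summed level was 3.35 to 7.43 TPM at day 0, 6.11 to 7.20 at day 1, 41.9 to 53.2 at day 3, 168 to 487 at day 5, 103 to 511 at day 7 and 147 to 1790 at day 9. It was 48.1 to 4140 at day 11, with the split described above, 1440 to 2220 at day 14, 536 to 1560 at day 20 and 11.8 to 156 at day 30. At day 90 it was 2.22 to 35.0 TPM. GATA4 and GATA6 were at 15.2 ± 9.36 and 9.83 ± 2.82 TPM there (121 ± 52.4 and 110 ± 9.11 CPM, SD, n = 3). At day 9 they were at 24.4 ± 11.3 and 11.9 ± 4.90 TPM (SD, n = 5). The part of endoderm cells in the levels of GATA4, GATA5 and GATA6 was not tested for any day.

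Endothelial and blood markers bear on GATA1 and GATA2. Of 8 endothelial markers, 5 were called higher at day 5 against day 3 and 7 lower at day 90 against day 9, among them CDH5 (54.3 ± 10.5 CPM at day 9, SD, n = 5, and 0.303 ± 0.204 at day 90, n = 3). Their sum was 38.6 to 48.9 TPM at day 3, 49.0 to 82.6 at day 5, 26.0 to 99.9 at day 9 and 2.84 to 12.3 at day 90. Of 12 blood markers 10 could be tested, and 3 were called higher at day 5, including TAL1 (30.3 ± 6.58 CPM against 0.259 ± 0.181, log2 change 6.86). PTPRC, the leukocyte antigen CD45, was lower (log2 change -3.95, adjusted p = 0.043, edgeR). At day 90, 7 of the 10 were lower than at day 9. Their sum went from 8.74 to 20.5 TPM at day 9 to 1.00 to 1.46 TPM at day 90, where KLF1, GFI1B, HBZ, HBG1 and SPI1 were at or under 3 counts in every well. The part of these cells in the fall of GATA1 and GATA2 was not tested.

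Trophoblast and amnion markers, which go with GATA3 in those tissues, numbered 10, of which 8 could be tested. At day 3 against day 1, the step in which GATA3 rose most, 2 of 8 were called, both lower (CDX2 and KRT7), and TFAP2B, CGA, GCM1 and ERVW-1 were at or under 3 counts in every day 3 well. At day 5 against day 3, 4 were called higher and CDX2 lower (-2.07). Their sum was 18.6 to 29.8 TPM at day 1, 5.03 to 8.57 at day 3, 8.65 to 23.1 at day 5, 12.8 to 69.4 at day 9, 26.7 to 87.2 at day 20, 11.3 to 104 at day 30 and 4.09 to 11.5 at day 90. GCM1 and ERVW-1 were at or under 3 counts in every well of days 3, 5, 9 and 90. The part of such cells in the level of GATA3 was not tested for any day.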

How the data were processed

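RNA of 44 wells was sequenced from stranded total-RNA libraries, per the labels' protocols. The authors deposited expected counts per gene and TPM, which are scaled for length and to a fixed sum per library. A deposited score, the RNA integrity number, and the sequencing lane come with each library. The submitters' processing notes name cutadapt, STAR 2.5.2b, RSEM 1.2.31 and the build hg38. The settings of these tools, with the use of strand, are not given in the sources used here. All columns matched a labelled sample.

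Estimated counts, 93.8% of them whole, were rounded. In edgeR 4.0.16 under R 4.3.3, filterByExpr kept 22955 genes, TMM scaled the libraries, and glmQLFit took all 44 libraries in 1 model whose terms were the group means. A gene was called at a Benjamini-Hochberg adjusted p under 0.05 over all genes and a log2 change of at least 1. The model was tested on simulated counts. Alternatives were RLE scaling, no filter, a replicate block, the lane as a term, the compared groups alone, DESeq2 1.42.0, limma 3.58.1 on log2(TPM + 1) and log2(TPM + 0.1), leaving out each well and, chosen after seeing the data, leaving out wells 1 and 2 of day 11 together. A sign change of a value not called in either setting was not counted as a reversal. Ratios of GATA4 to GATA6 used TPM + 0.1 and two-sided exact permutation tests, adjusted over 3 tests. Floors cover counting error only.

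The medians of 13535 more highly expressed genes moved by more than 0.1 on the log2 scale between scaled counts and TPM in 9 of the 13 comparisons. The largest shift was 0.82 (day 90 against day 30). Every called change of a member had the same direction in both.

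Wells are labelled as biological replicates with numbers. At day 9 against day 7, all 5 pairs with the same number deviated together (correlations 0.14 to 0.771), so the numbers were taken to pair those wells. With the block 360 in place of 293 genes were called there and 0 members in both fits.

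The members, gene lists and markers were chosen with earlier results of these data known. All 8 members are named. From each list at most 4 genes are named per comparison in which a member was called, those with the largest change first. The genes most like a member were the top 3 tested protein-coding genes, members left out, by Pearson correlation of log2(mean CPM + 1) over the 12 groups.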

Additional observations from a re-analysis of the deposited data

Results flagged for a closer look

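GATA1 in day 5 replicate 5 stood at 0.186 CPM (5 counts), while the other 4 wells of day 5 lay between 0 and 0.0428 CPM. The gap to the nearest well was 0.77 of the group's range, above the 0.71 that Dixon's test allows for 5 wells. It was the 1 such well in 36 such tests, of which chance flags about 1 in 20. The library was on lane 5 and had an integrity number of 10.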

How the results depend on the processing

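No result reversed. Member counts changed as follows. In day 0 against pluripotent wells 1 was called in the fit of the 2 groups and by DESeq2 (0 otherwise). In day 1 against day 0, limma on log2(TPM + 1) called 1, and the lane as a term and log2(TPM + 0.1) 2 of the 3. In day 5 against day 3, RLE scaling, no filter, the fit of the 2 groups and DESeq2 called 6 (with GATA6) and either TPM scale 4 (without ZFPM1), in place of 5. In day 9 against day 0, log2(TPM + 1) called 5 and log2(TPM + 0.1) 6, in place of 7. The fit of days 7 and 9 alone called 1 (GATA3). At day 30 against day 20 the count was 0 with the lane as a term, in the fit of the 2 groups and with either TPM scale. Log2(TPM + 1) called 2 in day 90 against day 9. Leaving out a well gave 2 to 3 in the step to day 1, 5 to 6 in that to day 5 and 0 to 1 in those to days 14, 30 and 90. The ratio of GATA4 to GATA6 differed by 0.40 to 0.52 between days 3 and 5 and by -0.74 to -0.35 between days 9 and 90 when a well was left out. With 2 wells at day 3 the exact test, adjusted over 3 tests, cannot pass the threshold.

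Outside day 9 against day 7 replicates share only a number, since at least 1 pair correlated at or below 0.1 or there were fewer than 3 pairs. With the replicate block the ratio differed by 0.46 between days 3 and 5 and 0.755 between days 5 and 9, over 3 and 4 pairs too few for an exact p under 0.05 (0.25 and 0.12). Between days 9 and 90 it differed by -0.19 over 2 pairs (exact permutation p = 1). The block left 0 members called at day 30 against day 20 (GATA2, adjusted p = 0.05, edgeR) and 2 at day 1 (without GATA5, adjusted p = 0.061, edgeR). Over all genes it called 0 in the step to day 14 and 68 in the step to day 20. It changed no other count of members.

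Counts over all genes moved more. Steps are named by their later day. With log2(TPM + 1) and log2(TPM + 0.1) limma called 45 and 77 at day 0 (669 by edgeR), 974 and 1522 at day 1 (3102), 1717 and 2640 at day 3 (4093), 260 and 446 at day 7 (838), 28 and 68 at day 9 (293), 13 and 12 at day 11 (375), 25 and 15 at day 14 (160) and 67 and 83 at day 30 (463). With log2(TPM + 1) it called 1050 at day 5 (2317), 3739 between days 0 and 9 (7278) and 2787 between days 9 and 90 (5485). With log2(TPM + 0.1) it called 3550 in the step to day 90 (1168). Fits of the 2 groups alone called 1792 at day 0, 527 at day 9, 0 each at days 14, 20 and 30 and 3 at day 90. DESeq2 called 417 at day 14, 42 at day 20 (11 by edgeR) and 714 at day 30. The lane as a term gave 12 at day 14, 19 at day 20 and 730 at day 90, and no filter gave 22 at day 20. Leaving out a well gave 264 to 421 at day 0, 203 to 439 at day 11, 2 to 1252 at day 14, 3 to 175 at day 20, 352 to 958 at day 30 and 742 to 1819 at day 90. Leaving out both wells 1 and 2 of day 11, chosen after seeing the data, gave 862 at day 11 and 2379 at day 14, with no member called in either by edgeR. The cause of these shifts was not tested. Members at or under the floor cannot be ranked at this depth.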
